A study of Homo sapiens with 9 samples.

Results

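Epithelial to mesenchymal transition genes were examined in TE13 cells, an esophageal squamous cell carcinoma (ESCC) line, after knockdown of PARylator, the long noncoding RNA of LINC00885. The 10 genes were CDH1, CDH3 and CDH2, VIM and FN1, and SNAI1, SNAI2, TWIST1, ZEB1 and ZEB2. They were taken by symbol from the 60605 genes of the deposited table, where each of these symbols has 1 row. RNA-seq was available for 3 groups of 3 libraries, which the series describes as biological replicates: TE13 cells given control siRNA, cells given PARylator siRNA.1 and cells given PARylator siRNA.2. No other agent, genotype change or dose is named for these libraries, the time after transfection is not given in the sources used here, and all 9 libraries come from the same cell line. The comparisons ask how loss of PARylator changes these genes, and whether both siRNAs give the same change.

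In epithelial to mesenchymal transition (EMT), cells loosen their junctions, exchange E-cadherin for N-cadherin, and build vimentin filaments and a fibronectin matrix. Transcription factors of the SNAI, ZEB and TWIST families drive it, and SNAI and ZEB factors repress CDH1 by binding E-boxes. In squamous epithelium, P-cadherin and E-cadherin are both part of the normal junctions, and carcinoma cells often hold only some of the mesenchymal genes (partial EMT). The miR-200 family and miR-205 restrain ZEB1 and ZEB2.

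Total counts on genes ranged from 15337917 to 22559998 per library. In controls LINC00885 counts were 6, 7 and 12, in siRNA.1 libraries 4, 5 and 2, and in siRNA.2 libraries 2, 0 and 4. Its fall was not called with siRNA.1 (log2 fold change -1.21, SE 0.95, adjusted p = 0.376) or siRNA.2 (-2.33, SE 1.01, adjusted p = 0.0659), so knockdown was not detectable at this depth. The paper reports siRNA knockdown of PARylator in TE13 cells by quantitative PCR, a separate measurement. Mitochondrial genes took 7.46% to 7.66% of the counts in controls, 4.99% to 5.06% in siRNA.1 libraries and 5.54% to 5.56% in siRNA.2 libraries, and their part in the results was not tested. Unless stated otherwise, fold changes, SEs and adjusted p-values are from edgeR's quasi-likelihood test with Benjamini-Hochberg adjustment across 21395 genes whose mean reached 0.1 FPKM (fragments per kilobase of exon, scaled to the library total), and a gene was called at an adjusted p under 0.05. The epithelial label was checked against lists of marker genes. The 4 simple-epithelium keratins summed to between 1469 and 1503 FPKM in controls. The sums were 1471 to 1582 FPKM in siRNA.1 libraries and 1290 to 1347 FPKM in siRNA.2 libraries. Of these keratins, 1 was called higher and 2 lower with each siRNA. In control, siRNA.1 and siRNA.2 libraries KRT18 averaged 451, 595 and 502 FPKM, and KRT8 285, 304 and 279 FPKM. KRT7 averaged 434, 400 and 340 FPKM, and KRT19 311, 212 and 194 FPKM. The 9 squamous markers summed to between 840 and 865 FPKM in controls, 639 and 674 FPKM in siRNA.1 libraries, and 659 and 677 FPKM in siRNA.2 libraries, without overlap between control and knockdown. Of the 9, 3 were called higher (KRT6A, PERP and DSG3) and 4 lower (KRT5, KRT17, TP63 and SFN) with each siRNA. Among all genes, 15.0% were called higher and 15.2% lower with siRNA.1, and 15.8% and 15.1% with siRNA.2. In control, siRNA.1 and siRNA.2 libraries KRT6A averaged 78.7, 102 and 118 FPKM. PERP averaged 66.4, 86.9 and 84.9 FPKM, and DSG3 10.3, 15.8 and 12.6 FPKM. KRT5, the basal keratin, had log2 fold changes of -1.86 and -1.36, and SFN, the epithelial 14-3-3 sigma protein, of -0.79 and -0.75. The log2 fold changes were -0.15 and -0.53 for CDH1 and -0.19 and -0.25 for CDH3. By estimate these cadherins fell more with siRNA.2, whereas KRT5 and SFN fell more with siRNA.1. The part of the squamous marker changes in those of CDH1 and CDH3 was not tested. The 9 fibroblast markers summed to at most 2.52 FPKM.

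VIM and FN1 rose and CDH1 and CDH3 fell with both PARylator siRNAs, while CDH2 was called higher with siRNA.2 and not with siRNA.1. VIM rose 11.5-fold with siRNA.1 and 10.5-fold with siRNA.2 from a very low level, FN1 rose 1.81-fold and 1.44-fold, and SNAI1 rose 1.71-fold with either siRNA. CDH1 fell by 9.65% with siRNA.1 and by 30.5% with siRNA.2. ZEB1 and ZEB2 were nearly absent in all 9 libraries.

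With siRNA.1, 5 of the 10 genes were called, 3 higher and 2 lower. Among all 21395 genes tested the corresponding shares were 30.3% called, 15.0% higher and 15.2% lower. With siRNA.2, 7 were called, 5 higher and 2 lower, against 30.9% of all genes called, 15.8% higher and 15.1% lower. Between the siRNAs, 3 were called, 1 higher and 2 lower with siRNA.2, against 12.2% of all genes, 6.10% higher and 6.06% lower. ZEB1 and ZEB2 were under the FPKM filter, so 8 genes were tested. The median log2 fold change of these 8 was 0.18 and 0.41 for the siRNAs in turn, beside -0.0006 and 0.004 over all genes. Both comparisons use the same control libraries. With limma on log2(FPKM + 0.1) the calls with siRNA.1 were 3 higher and 1 lower, and with limma on log2(FPKM + 1) they were 2 higher and 1 lower.

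Promoter sequence is shown for VIM, FN1 and CDH2, the genes called higher with at least 1 siRNA whose start the RefSeq table holds, so that a reader can see what lies at their start. RefSeq windows (GRCh38.p14, 250 bases before to 50 after a transcript start) were found for 5 of the 10 genes, VIM, FN1, CDH2, ZEB1 and ZEB2, in 12 windows. Capitals mark every match, on either strand, to the E-box bound by SNAI and ZEB factors (CACCTG or CAGGTG), the cyclic AMP response element (TGACGTCA), the AP-1 site (TGACTCA or TGAGTCA), the GC box (GGGCGG or CCGCCC) and the CCAAT box (CCAAT or ATTGG). All are written 5′ to 3′ on the strand of the gene.
VIM, chr10:17227991-17228290, plus strand: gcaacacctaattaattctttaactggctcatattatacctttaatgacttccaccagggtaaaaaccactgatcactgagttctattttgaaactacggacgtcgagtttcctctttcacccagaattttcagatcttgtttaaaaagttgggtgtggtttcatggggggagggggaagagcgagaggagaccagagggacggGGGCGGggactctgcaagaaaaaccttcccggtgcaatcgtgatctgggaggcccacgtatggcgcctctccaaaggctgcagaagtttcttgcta
FN1, chr2:215436019-215436318, minus strand: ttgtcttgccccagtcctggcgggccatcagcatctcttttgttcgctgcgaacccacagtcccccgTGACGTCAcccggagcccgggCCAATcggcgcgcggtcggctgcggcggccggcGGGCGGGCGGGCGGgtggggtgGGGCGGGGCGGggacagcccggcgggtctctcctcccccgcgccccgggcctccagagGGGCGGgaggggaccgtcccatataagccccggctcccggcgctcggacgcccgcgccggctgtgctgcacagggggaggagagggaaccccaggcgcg
CDH2, chr18:28177081-28177380, minus strand: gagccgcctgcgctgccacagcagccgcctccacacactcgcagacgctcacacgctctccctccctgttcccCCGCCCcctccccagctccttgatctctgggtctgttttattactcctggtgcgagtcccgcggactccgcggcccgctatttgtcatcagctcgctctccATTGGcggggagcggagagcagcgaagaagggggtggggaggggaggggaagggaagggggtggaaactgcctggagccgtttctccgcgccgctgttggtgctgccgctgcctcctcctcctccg

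The VIM window holds 1 GC box, starting at position -46 from the transcript start, and none of the other motifs. FN1 holds 1 cyclic AMP response element at -183, 1 CCAAT box at -162 and 6 GC boxes, some of which overlap each other. The CDH2 window shown holds 1 GC box at -177 and 1 CCAAT box at -76. A second CDH2 start, at chr18:28036592-28036891, is not shown and has 1 CCAAT box at -67 and none of the other motifs. Over all 35116 windows, a cyclic AMP response element occurs in 1.85%, an AP-1 site in 4.95%, a GC box in 45.0%, a CCAAT box in 34.6% and an E-box in 20.6%. The E-box letters are in none of the windows of VIM, FN1 and CDH2 and occur in 2 of the 7 windows of ZEB1, which says nothing about binding of the factors.

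CDH1 encodes E-cadherin, the adhesion molecule of epithelial adherens junctions (chr16:68737292-68835537, GRCh38). Its level was 140.20, 125.74 and 133.84 FPKM in the control libraries, 118.91, 125.68 and 123.61 FPKM with siRNA.1, and 98.02, 90.81 and 91.19 FPKM with siRNA.2. All siRNA.2 libraries were below every other library, while the highest siRNA.1 library came within 0.1 FPKM of the lowest control. The log2 fold change was -0.15 with siRNA.1 (SE 0.04, adjusted p = 0.000414) and -0.53 with siRNA.2 (SE 0.04, adjusted p = 3.32e-44). The fall was larger with siRNA.2, by -0.38 on the log2 scale (adjusted p = 2.43e-22). The call with siRNA.1 was lost with limma on log2(FPKM + 0.1), where the change was -0.12 (adjusted p = 0.101).

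CDH3 encodes P-cadherin, the cadherin of basal squamous cells, and lies beside CDH1 (chr16:68636189-68727468). It was at 92.50, 86.99 and 91.38 FPKM in controls, 78.50, 81.82 and 82.01 FPKM with siRNA.1, and 78.37, 77.66 and 74.06 FPKM with siRNA.2. Every control library was above every knockdown library. The log2 fold changes were -0.19 (SE 0.04, adjusted p = 1e-05) and -0.25 (SE 0.04, adjusted p = 2.26e-09). The siRNAs were not called different from each other, with a difference of -0.059 (95% interval -0.13 to 0.017, adjusted p = 0.404).

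CDH2 encodes N-cadherin, the cadherin of neural and mesenchymal cells whose gain marks the cadherin switch. It was at 5.85, 6.52 and 6.57 FPKM in controls, 7.05, 6.60 and 6.92 FPKM with siRNA.1, and 9.88, 10.25 and 10.40 FPKM with siRNA.2. The siRNA.2 libraries stood above all others, and the siRNA.1 libraries began just above the highest control on this scale. With siRNA.2 the log2 fold change was 0.68 (SE 0.06, adjusted p = 8.12e-25). With siRNA.1 it was 0.092 (95% interval -0.037 to 0.22, adjusted p = 0.327), and the difference between the siRNAs was 0.59 (adjusted p = 3.14e-18). ENSG00000227279, an unnamed noncoding gene on the opposite strand of CDH2, had 5 to 31 counts and was called higher with siRNA.2 (log2 fold change 1.25, adjusted p = 0.0382). The strand setting of the counting is not given, so reads of the 2 genes cannot be told apart where they overlap, but CDH2 had 770 to 2014 counts.

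Within a library, the FPKM ratio of CDH1 to CDH2 was 21.2 ± 2.45 (SD, n = 3) in controls, 17.9 ± 1.09 with siRNA.1 and 9.18 ± 0.64 with siRNA.2. E-cadherin RNA remained the more abundant in all 9 libraries. The ratio of CDH1 to CDH3 was 1.48 ± 0.036 in controls, 1.52 ± 0.015 with siRNA.1 and 1.22 ± 0.042 with siRNA.2. The siRNA.2 libraries fell below the control range of this ratio, and no siRNA.1 library did. These ratios are descriptions and were not tested.

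**Figure D1:**
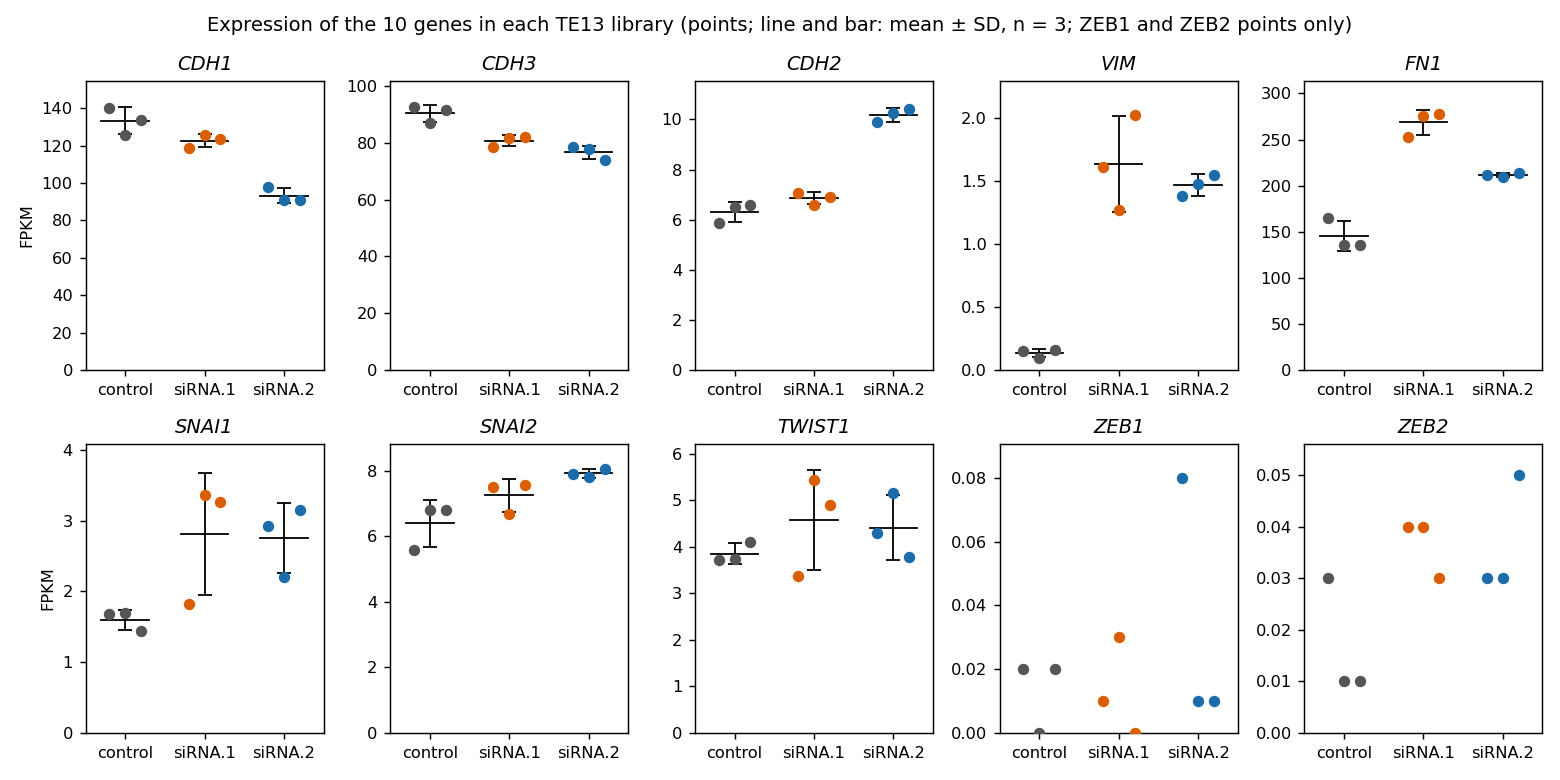
FPKM of each of the 10 genes (vertical axes, each starting at 0) in the control, siRNA.1 and siRNA.2 libraries. Points are libraries, and lines and bars are the mean ± SD of 3, except for ZEB1 and ZEB2, which have points only. CDH1 and CDH3 step down, FN1 and VIM step up with both siRNAs, and CDH2 is highest with siRNA.2, while ZEB1 and ZEB2 stay below 0.1 FPKM.

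VIM encodes vimentin, the intermediate filament protein of mesenchymal cells. It had 12, 8 and 15 counts in controls, 148, 101 and 183 with siRNA.1, and 141, 147 and 181 with siRNA.2. In FPKM these are 0.15, 0.10 and 0.16, then 1.61, 1.27 and 2.03, then 1.38, 1.48 and 1.55. No knockdown library was near a control library, and the libraries of the siRNAs overlapped each other. The log2 fold changes were 3.53 (SE 0.25, adjusted p = 7.56e-44) and 3.39 (SE 0.25, adjusted p = 1.92e-40). They differed by -0.14 (95% interval -0.48 to 0.19, adjusted p = 0.712). Vimentin RNA stayed low for a filament gene, since KRT18, a keratin of simple epithelia, averaged 451 FPKM in controls, 595 in siRNA.1 libraries and 502 in siRNA.2 libraries. With limma on log2(FPKM + 1) the changes were 1.20 and 1.12, because a pseudocount of 1 exceeds the control level.

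Markers of other vimentin-bearing cells were read beside VIM. The 6 blood-cell markers summed to between 0.46 and 1.20 FPKM in controls, 3.65 and 4.37 FPKM with siRNA.1, and 3.49 and 4.41 FPKM with siRNA.2. LYZ, which encodes lysozyme, PTPRC, which encodes CD45, and CSF1R, the receptor of macrophage growth factor, were called higher with both siRNAs, 3 of 6 markers, while MS4A1 was at 0 in every library and CD3E had at most 1 count in each. LYZ gave most of this sum, with 0.32, 2.79 and 3.08 FPKM on average in control, siRNA.1 and siRNA.2 libraries. The fibroblast sum was 2.30 to 2.52 FPKM in controls, 1.53 to 1.72 in siRNA.1 libraries and 1.51 to 1.81 in siRNA.2 libraries, and the endothelial sum was 1.20 to 1.56, then 0.63 to 0.95, then 0.48 to 0.55 FPKM. Of the 9 fibroblast markers, 7 averaged under 0.1 FPKM, and of the 5 endothelial markers 3 did. Among these low markers, the fibroblast gene DCN was at 0 in all knockdown libraries and the endothelial gene KDR had 1 count, in a single siRNA.2 library. PECAM1, which encodes CD31 of endothelium and blood cells, had 8, 0 and 1 counts in controls, 10, 7 and 12 with siRNA.1, and 16, 8 and 14 with siRNA.2. CLDN5, FAP, PDGFRA, PDGFRB and CD79A also had higher means in both knockdown groups, at no more than 15 counts in a library. COL1A1 gave most of the fibroblast sum, with 1.99, 1.39 and 1.40 FPKM on average in control, siRNA.1 and siRNA.2 libraries. The part of other cells in the rise of VIM was not tested, and in bulk RNA a change in cell make-up and a change of RNA per cell cannot be told apart. VIM-AS1, on the opposite strand of VIM, had at most 22 counts in a library and was not called with siRNA.1 (adjusted p = 0.728) or siRNA.2 (adjusted p = 0.0762).

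FN1 encodes fibronectin, a glycoprotein of the extracellular matrix (chr2:215360440-215436073). It was at 164.60, 136.09 and 136.27 FPKM in controls, 253.06, 275.38 and 278.12 FPKM with siRNA.1, and 211.34, 209.45 and 214.30 FPKM with siRNA.2. The 3 groups did not overlap, with siRNA.1 highest. The log2 fold change was 0.86 with siRNA.1 (SE 0.03, adjusted p = 5.46e-201) and 0.53 with siRNA.2 (SE 0.03, adjusted p = 3.08e-77). The rise was smaller with siRNA.2 by -0.33 (adjusted p = 2.88e-29), the opposite order from CDH1 and CDH2, where siRNA.2 gave the larger change. The FN1 to CDH1 ratio was 1.09 ± 0.078 in controls, 2.19 ± 0.061 with siRNA.1 and 2.27 ± 0.10 with siRNA.2. The libraries of the siRNAs overlapped in it.

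**Figure D2:**
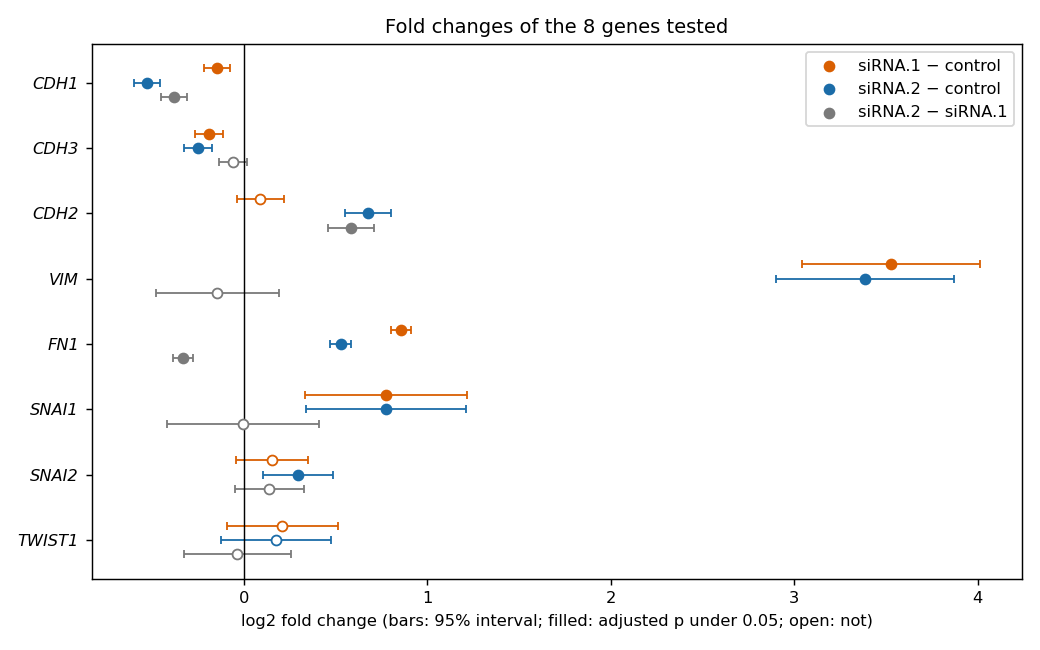
log2 fold change (horizontal axis) of the 8 genes tested, for siRNA.1 minus control, siRNA.2 minus control and siRNA.2 minus siRNA.1. Bars are 95% intervals, filled points were called and open points were not. VIM stands apart at 3.53 and 3.39, and the siRNAs differ for CDH1, CDH2 and FN1.

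SNAI1 encodes Snail, a zinc finger repressor of CDH1. It was at 1.68, 1.69 and 1.44 FPKM in controls (44, 45 and 44 counts), 1.82, 3.36 and 3.26 FPKM with siRNA.1 (55, 88 and 97 counts), and 2.93, 2.20 and 3.15 FPKM with siRNA.2 (99, 72 and 121 counts). One siRNA.1 library lay close to the controls, and the other knockdown libraries were higher. The log2 fold changes were 0.78 with siRNA.1 (SE 0.23, adjusted p = 0.00309) and 0.78 with siRNA.2 (SE 0.22, adjusted p = 0.0025). With limma on log2(FPKM + 1) neither was called (0.52 with either siRNA, adjusted p = 0.055 and 0.0551).

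SNAI2 encodes Slug, the other widely expressed Snail factor and one found in basal epithelium. It was at 5.58, 6.80 and 6.81 FPKM in controls, 7.52, 6.68 and 7.58 FPKM with siRNA.1, and 7.91, 7.80 and 8.05 FPKM with siRNA.2. The siRNA.1 libraries overlapped the controls and the siRNA.2 libraries did not. The log2 fold change was 0.30 with siRNA.2 (SE 0.098, adjusted p = 0.0106) and 0.15 with siRNA.1 (95% interval -0.042 to 0.35, adjusted p = 0.266). Without control replicate 1, the lowest library, the change with siRNA.2 was 0.21 and not called (adjusted p = 0.146). The difference between the siRNAs was 0.14 (95% interval -0.048 to 0.33, adjusted p = 0.431).

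TWIST1, a basic helix-loop-helix factor of mesoderm, was at 3.72, 3.73 and 4.11 FPKM in controls, 3.38, 5.44 and 4.90 FPKM with siRNA.1, and 4.30, 5.16 and 3.77 FPKM with siRNA.2. All 3 groups overlapped. The log2 fold changes were 0.21 (95% interval -0.091 to 0.51, adjusted p = 0.335) and 0.18 (95% interval -0.12 to 0.48, adjusted p = 0.43). Over the 17 alternatives they ranged from 0.081 to 0.39 and from 0.045 to 0.28, and none was called.

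ZEB1 and ZEB2 encode zinc finger homeodomain repressors of epithelial genes. ZEB1 had 2, 0 and 3 counts in controls, 1, 4 and 0 with siRNA.1, and 14, 2 and 1 with siRNA.2, so 1 library held most of its reads. ZEB2 had 13, 6 and 3 counts in controls, 17, 15 and 13 with siRNA.1, and 17, 16 and 28 with siRNA.2. In a fit without the FPKM filter, ZEB2 had log2 fold changes of 0.93 (SE 0.55, adjusted p = 0.3) and 1.09 (SE 0.54, adjusted p = 0.173), and the groups overlapped. At these counts no change of either gene was detectable. ZEB1-AS1, a noncoding RNA that starts at the ZEB1 promoter on the opposite strand, had more reads than ZEB1 itself, with 26, 30 and 28 counts in controls, 91, 54 and 45 with siRNA.1, and 89, 73 and 83 with siRNA.2. It was called higher with siRNA.1 (log2 fold change 1.09, SE 0.26, adjusted p = 0.000248) and siRNA.2 (1.19, SE 0.26, adjusted p = 3e-05), a gene singled out after its values were seen.

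By level per length in controls, the order was FN1 (146 ± 16.4 FPKM, SD, n = 3), CDH1 (133 ± 7.25), CDH3 (90.3 ± 2.91), SNAI2 (6.40 ± 0.71), CDH2 (6.31 ± 0.40), TWIST1 (3.85 ± 0.22), SNAI1 (1.60 ± 0.14), VIM (0.14 ± 0.032), ZEB2 (0.017 ± 0.012) and ZEB1 (0.013 ± 0.012). FN1 and CDH1 overlapped in controls, as did SNAI2 and CDH2, and ZEB2 and ZEB1, while the other neighbours did not. FN1 and CDH1 were above 99.3% and 99.2% of the 28065 genes detected, whereas VIM was above 29.4%. With either siRNA FN1 stood clear above CDH1, and with siRNA.2 CDH2 stood above SNAI2 in all 3 libraries. TE13 cells given control siRNA thus held abundant fibronectin, E-cadherin and P-cadherin RNA together, with moderate SNAI2, CDH2 and TWIST1 and almost no VIM, ZEB1 or ZEB2.

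**Figure D3:**
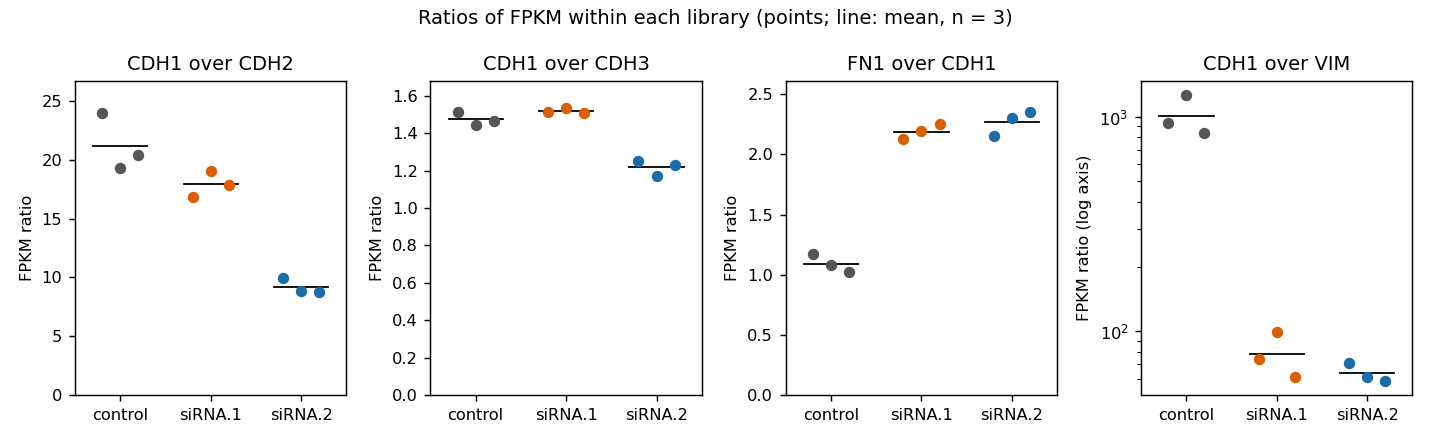
Ratios of FPKM between pairs of the genes within each library (vertical axes, linear from 0 for the first 3 panels and logarithmic for CDH1 over VIM). Points are libraries and lines are means of 3. CDH1 over CDH2 falls from 21.2 in controls to 9.18 with siRNA.2, FN1 over CDH1 rises from 1.09 to 2.19 and 2.27, and CDH1 over VIM falls from 1010 to 77.9 and 63.7.

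Other genes of the EMT program were read from 6 lists of 159 genes, of which 132 passed the FPKM filter. With siRNA.1, 37 were called higher and 42 lower, and with siRNA.2, 33 were higher and 59 lower. The called share was 59.8% and 69.7% of those tested, beside 30.3% and 30.9% of all genes. These shares were not matched for expression level, and the lists were chosen with earlier results of these data known. The median log2 fold changes were -0.0031 and -0.14. Among genes called in the same direction with both siRNAs and averaging at least 1 FPKM, those with the largest changes are named below. For 5 of the 6 lists the most abundant gene is named too. Some genes under 1 FPKM changed more. TJP3 of the junction list had log2 fold changes of -2.21 and -2.67, and GREM1 of the matrix list 3.35 and 2.60.

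Adherens and tight junctions changed mostly downward with siRNA.2. Of 29 genes, 10 rose and 12 fell with siRNA.1, while 3 rose and 22 fell with siRNA.2, and the median log2 fold changes were -0.12 and -0.24. The shares over all genes were 15.0% higher and 15.2% lower with siRNA.1, and 15.8% and 15.1% with siRNA.2. Between the siRNAs, 15 of the 29 were lower with siRNA.2 and none was higher by edgeR, beside 6.06% of all genes lower and 6.10% higher. CLDN3, a tight junction claudin, fell from 10.2 ± 1.07 FPKM (SD, n = 3) to 5.15 ± 0.97 and 4.43 ± 0.80 (log2 fold changes -1.01 and -1.21, adjusted p = 7.31e-10 and 5.88e-14). NECTIN1, an adherens junction adhesion molecule, fell by 0.64 and 0.91 on the log2 scale (adjusted p = 8.05e-42 and 5.16e-83). F11R, the junctional adhesion molecule A, fell by 0.65 and 0.77, and CTNND1, the p120 catenin that holds E-cadherin at the membrane, fell by 0.41 and 0.47 on that scale. EPCAM, an epithelial adhesion molecule, went the other way and rose from 99.0 ± 3.48 to 137 ± 6.17 and 136 ± 3.79 FPKM (log2 fold changes 0.44 and 0.45, adjusted p = 1.61e-22 and 1.08e-23). CLDN1 rose by log2 fold changes of 0.43 and 0.10, and MARVELD3, a tight junction protein, by 0.26 and 0.29. MAL2, the most abundant of the list at 266 ± 3.00 FPKM in controls, had log2 fold changes of 0.11 and -0.11 (adjusted p = 0.00514 and 0.00502), and siRNA.2 minus siRNA.1 was -0.23 (adjusted p = 4.84e-09).

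Epithelial regulators are the transcription factors, splicing regulators (ESRP1 and ESRP2) and microRNA host genes that keep epithelial identity. Of 15, 2 rose and 4 fell with siRNA.1, and 3 rose and 8 fell with siRNA.2. Among all genes, 15.0% rose and 15.2% fell with siRNA.1, and 15.8% rose and 15.1% fell with siRNA.2. The rises in this list were thus near the share over all genes. GRHL3, a grainyhead factor of the epidermal barrier, fell from 10.3 ± 1.23 FPKM to 5.85 ± 0.56 and 5.57 ± 0.27 (log2 fold changes -0.83 and -0.89, adjusted p = 2.59e-18 and 2.15e-21). FOXA1, a pioneer factor, fell by 0.48 and 0.64 on the log2 scale, and ELF3, an ETS factor of epithelia, by 0.35 and 0.66. KLF4, a factor of differentiating squamous cells, rose with log2 fold changes of 0.43 and 0.39.

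MIR205HG, the host transcript of miR-205, was at 31.11, 32.58 and 35.17 FPKM in controls, 19.91, 19.72 and 21.00 FPKM with siRNA.1, and 23.81, 21.42 and 21.96 FPKM with siRNA.2. All knockdown libraries were below all controls, with log2 fold changes of -0.73 (SE 0.058, adjusted p = 2.99e-34) and -0.57 (SE 0.057, adjusted p = 9.4e-22). MIR200CHG, which hosts miR-200c and miR-141, had 11, 15 and 18 counts in controls, 24, 12 and 36 with siRNA.1, and 23, 31 and 36 with siRNA.2, and was not called with siRNA.1 (adjusted p = 0.293) or siRNA.2 (adjusted p = 0.222). The mature microRNAs of both hosts are shown because they target ZEB1 and ZEB2, with the seed (bases 2 to 8) in capitals, from RefSeq. They were not measured by poly(A) RNA-seq.
hsa-miR-205-5p: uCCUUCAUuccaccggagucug
hsa-miR-200c-3p: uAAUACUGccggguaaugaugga
hsa-miR-141-3p: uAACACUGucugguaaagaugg

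The 3 seeds differ from one another. ZEB1 and ZEB2, which both microRNA families are known to target, were at the counts given above in every group.

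Other EMT transcription factors were read from 16 genes, 15 of them tested. With siRNA.1, 5 rose and 3 fell, and with siRNA.2, 8 rose and 3 fell, with median log2 fold changes of 0.17 and 0.29. The shares over all genes were 15.0% higher and 15.2% lower with siRNA.1, and 15.8% and 15.1% with siRNA.2. TBX3, a T-box factor, rose from 6.05 ± 0.25 FPKM to 8.70 ± 0.23 and 11.6 ± 0.26 (log2 fold changes 0.50 and 0.92, adjusted p = 1.7e-10 and 1.24e-36). SOX9, the most abundant of the list, rose from 22.3 ± 0.71 to 34.3 ± 0.86 and 36.6 ± 1.39 FPKM (0.59 and 0.70, adjusted p = 4.28e-26 and 5.2e-37). HMGA2, an architectural chromatin protein, rose with log2 fold changes of 0.44 and 0.66, and TWIST2, the paralog of TWIST1, with 0.47 and 0.44 (adjusted p = 0.00324 and 0.00536). SOX4 fell by 0.44 and 0.36 on the log2 scale, ETS1 by 0.26 and 0.34, and FOXC1 by 0.21 and 0.22 (adjusted p = 0.0488 and 0.0264). Between the siRNAs, 3 factors were higher with siRNA.2 and none was lower by edgeR, beside 6.10% and 6.06% of all genes, TBX3 among them by 0.42 (adjusted p = 3.6e-08).

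Mesenchymal matrix and cytoskeleton genes moved in both directions. Of 48 listed, 38 were tested, 15 rose and 13 fell with siRNA.1, and 13 rose and 14 fell with siRNA.2, with median log2 fold changes of 0.012 and -0.028. The shares over all genes were 15.0% higher and 15.2% lower with siRNA.1, and 15.8% and 15.1% with siRNA.2. THBS1, the matrix glycoprotein thrombospondin 1 and the most abundant of the list, rose from 322 ± 4.74 FPKM to 471 ± 9.50 and 534 ± 7.39 (log2 fold changes 0.52 and 0.72, adjusted p = 1.84e-78 and 1.46e-148). CCN1, a matricellular protein, rose with log2 fold changes of 0.68 and 0.45, THBS2 with 0.55 and 0.50, and PLAUR, the urokinase receptor, with 0.51 and 0.46. LOXL2, a lysyl oxidase that crosslinks collagen, fell from 5.55 ± 0.22 FPKM to 1.96 ± 0.11 and 2.13 ± 0.0058 (log2 fold changes -1.53 and -1.39, adjusted p = 6.41e-42 and 3.69e-37). ITGAV, the alpha V integrin subunit, fell by 0.74 and 0.65 on the log2 scale, and S100A4, a calcium-binding protein also known as fibroblast-specific protein, by 0.71 and 0.73 (adjusted p = 0.00153 and 0.00071). COL5A1, a fibrillar collagen chain, fell by 0.28 with siRNA.1 and by 1.09 with siRNA.2, which differ by -0.81 (adjusted p = 8.99e-37). VIM and FN1 rose beside other matrix and cytoskeleton genes that moved in either direction. Of genes averaging under 1 FPKM, GREM1, SPARC, VCAN and LOX were called higher with both siRNAs. Their control means were 0.057, 0.080, 0.083 and 0.34 FPKM. The log2 fold changes were 3.35 and 2.60 for GREM1, 2.18 and 2.09 for SPARC, 1.73 and 1.91 for VCAN, and 1.04 and 0.73 for LOX. With siRNA.2 alone, FBLN5 was called higher and TAGLN lower. These genes were named after their values were seen.

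TGF-beta and BMP signalling, whose ligands can start EMT, was read from 31 genes, all tested. With siRNA.1, 5 rose and 9 fell, and with siRNA.2, 5 rose and 11 fell. Among all genes, 15.0% rose and 15.2% fell with siRNA.1, and 15.8% rose and 15.1% fell with siRNA.2. The rises in this list were thus near the share over all genes. Among ligands, INHBA, the activin A subunit and the most abundant of the list, rose from 44.2 ± 3.66 FPKM to 88.5 ± 5.50 and 74.9 ± 0.80 (log2 fold changes 0.97 and 0.75, adjusted p = 6.6e-137 and 7.18e-82), and BMP7 rose by log2 fold changes of 0.70 and 0.82. TGFB2, a TGF-beta ligand, fell by 0.59 and 0.70 on the log2 scale, and TGFBR1, the type I receptor, by 0.58 and 0.59. LTBP2, a latent TGF-beta binding protein family member, rose with log2 fold changes of 0.58 and 0.40, and PMEPA1, a TGF-beta target and feedback inhibitor, with 0.28 and 0.56. The BMP targets ID1 and ID3, inhibitors of helix-loop-helix factors, fell. ID1 went from 28.3 ± 2.43 FPKM to 8.82 ± 1.79 and 9.65 ± 0.55 (log2 fold changes -1.70 and -1.56, adjusted p = 2.72e-51 and 6.67e-46), and ID3 fell by 0.77 and 0.62 on the log2 scale.

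The 20 other cadherins were mostly silent, and 4 passed the filter. CDH24, a type II cadherin and the most abundant at 8.09 ± 0.48 FPKM in controls, had log2 fold changes of -0.046 (adjusted p = 0.765) and 0.088 (adjusted p = 0.508). CDH5, the endothelial VE-cadherin, fell by 0.58 and 1.63 on the log2 scale (adjusted p = 0.0443 and 7.32e-10) from 0.85 ± 0.11 FPKM, and CDH13, a cadherin anchored without a cytoplasmic tail, rose by 0.20 with siRNA.2 (adjusted p = 0.0196). These last 2 were named after their values were seen, since they are the only other cadherins called.

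**Figure D4:**
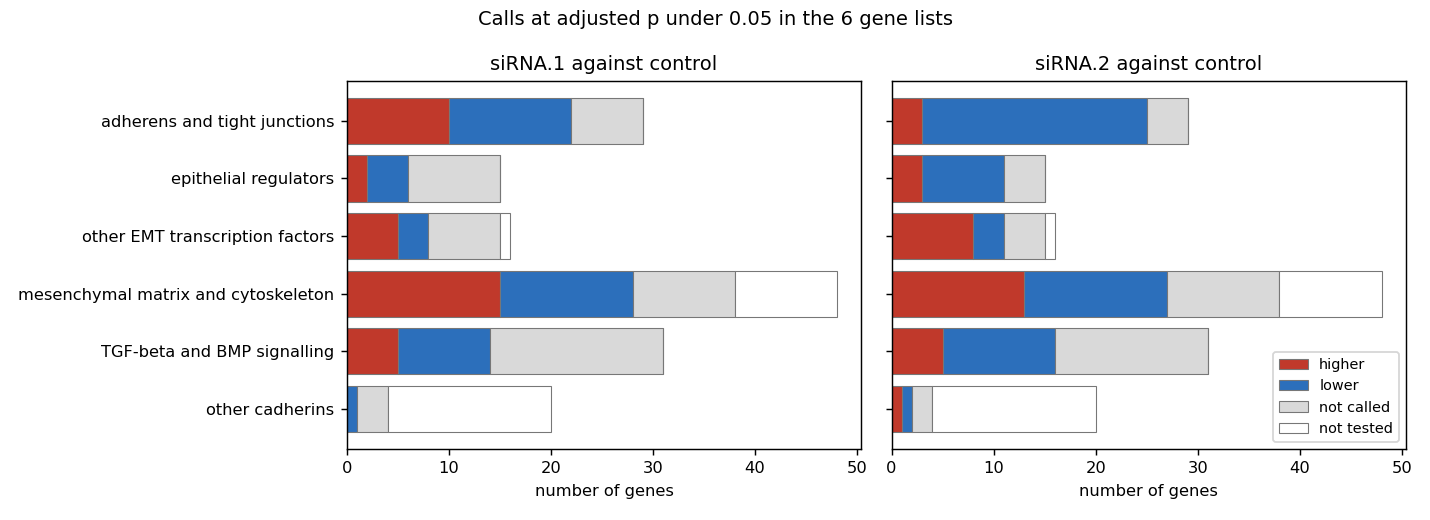
Number of genes (horizontal axis) called higher, called lower, not called and not tested in each of the 6 lists, with siRNA.1 on the left and siRNA.2 on the right. Junction genes go from 10 higher and 12 lower to 3 higher and 22 lower, and matrix genes divide nearly evenly with both siRNAs.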

How the data were processed

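TE13 RNA was sequenced by the authors as poly(A)+ libraries, checked with FastQC, aligned with STAR and counted per gene with featureCounts. The submitters' processing notes name GRCh38. Versions, annotation release and strandedness are not given in the sources used here. The deposited table holds raw counts and FPKM per library, the FPKM being returned from the counts, total and exonic length within 0.01. Groups came from the sample labels. Counts were fitted with edgeR 4.0.16 (TMM, 1 fit of the 3 groups, quasi-likelihood test, no covariates). The filter was a mean of at least 0.1 FPKM, and the threshold an adjusted p under 0.05. An SE is the log2 fold change divided by the root of F and 95% intervals assume normal errors. The fit was tested on simulated counts. Alternatives were RLE scaling, other filters, DESeq2 1.42.0, limma 3.58.1, 2 groups alone, a replicate block and each library left out. The 10 genes and the lists were chosen with earlier results of these data known. Genes named from the lists were, per direction, up to 4 with the largest mean change among those called alike with both siRNAs at a mean of at least 1 FPKM, and the most abundant. P-values measure only the spread between these libraries, which differed from each other by more than sampling noise (chi-square per degree of freedom 2.76 to 4.62). LINC00885 was named as the target. One gene that this rule selects is not reported here.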

Additional observations from a re-analysis of the deposited data

Results flagged for a closer look

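The effects of the 2 siRNAs differed by edgeR's test of the difference for 3 of the 10 genes. The log2 fold change with siRNA.2 minus that with siRNA.1 was -0.38 for CDH1, 0.59 for CDH2 and -0.33 for FN1. For CDH1 and CDH2 the siRNA.2 libraries were the furthest from control, and for FN1 the siRNA.1 libraries were. Each difference kept its direction and its call under all 17 alternatives. LINC00885 had 2 to 5 counts in siRNA.1 libraries and 0 to 4 in siRNA.2 libraries, and the part of unequal knockdown in these differences was not tested.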

How the results depend on the processing

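Of the 408 recomputed log2 fold changes of the 8 genes tested (17 alternatives in 3 comparisons), 393 kept their direction and side of the threshold. With limma on log2(FPKM + 1), 3 of the genes were called with siRNA.1 in place of 5, since CDH1 (-0.12, adjusted p = 0.104) and SNAI1 (0.52) were lost. Direction turned only between the siRNAs and only for genes that were not called there. SNAI1 was at -0.0006, and at 0.0031 without the filter, 0.007 with limma on log2(FPKM + 0.1) and 0.0112 with the replicate block. With 1 library left out it ranged from -0.24 to 0.14, TWIST1 from -0.21 to 0.097 and VIM from -0.30 to 0.043. The cause was not tested.

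Same-numbered libraries did not deviate together (correlations of their deviations -0.16 to 0.080 over 9 pairs, and for 0 of 9 libraries was the best match one of the same number). No pairing by number was seen, but correlations over many genes cannot show one that is limited to few genes. With the replicate block, 5, 7 and 3 of the genes and 76, 90 and 52 of the listed genes were called, beside 79, 92 and 53 without it. Counts limit VIM in controls, SNAI1, ZEB1, ZEB2 and LINC00885, and intervals cover these libraries only.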
